A study of Sorghum bicolor with 16 samples.

Results

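*SbSWEET1* (*Sobic.003G377700*) and *SbSWEET16* (*Sobic.001G377600*) are the SWEET sugar transporter genes that the study names by ID, and their rows were followed through the endosperm transcriptome of developing sorghum seeds. They are 2 of the 34129 genes in the deposited table, and both exceeded a mean of 1 FPKM (a fragment count scaled by transcript length and by the size of the library) in at least 1 group. The study drew them from these same libraries, so a test of either gene at 6 DPA (days post anthesis) describes the gene and is not independent evidence. The same holds for any contrast that includes 6 DPA.

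The libraries came from *wxe*, a waxy line made by EMS mutagenesis, and from WT, its parent BTx623. The *wxe* plants were homozygous for a stop-gained allele of *GBSSI*, the granule-bound starch synthase gene that makes amylose, and the line carries other EMS mutations as well, so an effect of *wxe* is here an effect of the line. Both lines grew in adjacent field rows, and endosperm was dissected from frozen seeds at 6, 11, 16 and 21 DPA. Each replicate pooled the middle part of 3 panicles, and 2 replicates per genotype and age gave 16 libraries in 8 groups. The replicates were pools of panicles, so a p-value rests on the spread between such pools. Unless an age was fitted alone, that spread was estimated over all 8 groups together and is not that of the groups compared.

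SWEET proteins sit in cell membranes and let sugars pass along their concentration gradient in either direction, without using energy. The family moves sucrose and hexoses out of cells, and some members move sugars across the vacuole membrane. In maize and rice, SWEET genes act where the mother plant unloads sugar into the growing grain. In Arabidopsis, the protein called SWEET1 carries glucose across the plasma membrane, and SWEET16 carries glucose, fructose and sucrose across the vacuole membrane. The names of the sorghum genes follow the study, and the function of their proteins was not measured in these libraries.

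Both genes were at their highest level in *wxe* endosperm at 6 DPA, and both averaged under 1 FPKM from 16 DPA on in either genotype. At 6 DPA the mean level in *wxe* was 2.96 times that of WT for *SbSWEET1* and 3.98 times for *SbSWEET16*. At 11 DPA the order was turned round, and the *wxe* mean was 0.489 times that of WT for *SbSWEET1* and 0.317 times for *SbSWEET16*. The fall between these ages was 25.4-fold in *wxe* and 4.19-fold in WT for *SbSWEET1*, and 13.6-fold in *wxe* and 1.08-fold in WT for *SbSWEET16*. These are ratios of mean FPKM. Since the libraries are of bulk tissue, fewer expressing cells and less RNA per cell cannot be told apart.

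**Figure D1:**
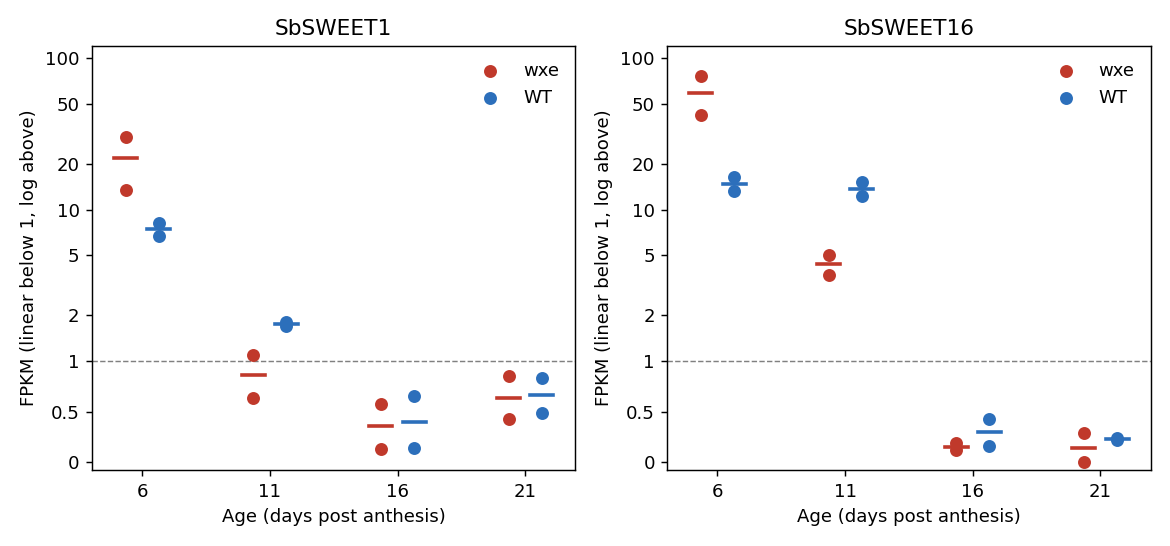
FPKM of *SbSWEET1* and *SbSWEET16* in each library (points) with the mean of the 2 libraries (bars), by age, *wxe* left of WT. The axis is linear below 1 FPKM and logarithmic above it, and the dashed line marks 1 FPKM. The *wxe* libraries lie above the WT libraries at 6 DPA, below them at 11 DPA, and from 16 DPA on all values are under 1 FPKM.

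At 6 DPA, *SbSWEET16* had 41.9 and 76.2 FPKM in the *wxe* libraries, against 16.5 and 13.2 FPKM in the WT libraries. The means were 59.0 ± 24.2 FPKM in *wxe* and 14.8 ± 2.37 FPKM in WT (SD, n = 2 each). Both *wxe* libraries lay above both WT libraries, and the lower *wxe* library also lay above every WT library of the later ages. With 2 libraries against 2, such separation alone cannot go below p = 0.333 in an exact permutation test, here and below. The share of all genes separated in this way is not given here. The log2 fold change on log2(FPKM + 1) was 1.87 (standard error 0.25, 95% interval 1.34 to 2.40, Benjamini-Hochberg adjusted p = 0.000166 by limma). Calls required that adjusted p be under 0.05 and the log2 fold change 0.58 or more in size, and *SbSWEET16* was called higher.

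*SbSWEET1* had 13.5 and 30.2 FPKM in *wxe* at 6 DPA, against 8.09 and 6.67 FPKM in WT. The means were 21.8 ± 11.8 FPKM in *wxe* and 7.38 ± 1.0 FPKM in WT (SD, n = 2 each). The genotypes did not overlap, but the *wxe* libraries differed from each other by more than the lower of them differed from WT. The log2 fold change was 1.35 (standard error 0.31, 95% interval 0.67 to 2.03, adjusted p = 0.00619 from limma), and *SbSWEET1* was called higher. The call was lost without the second *wxe* library, where the log2 fold change was 0.80 and the adjusted p was 0.0697 from limma, and without the second WT library the values were 1.23 and 0.0534. It was also lost with a pseudocount of 0.1 (adjusted p = 0.0941) and with 6 DPA fitted alone (adjusted p = 0.0697). The call of *SbSWEET16* at 6 DPA was kept in all these cases, and its log2 fold change was 2.29 without the first and 1.45 without the second *wxe* library. Over all the alternatives the adjusted p of *SbSWEET16* from limma ran up to 0.0262, well above the 0.000166 given above but under 0.05.

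Both members were thus called higher at 6 DPA, where 14.4% of the 16967 genes tested were called higher in *wxe* and 5.15% lower. Under quantile normalization 2087 genes were called higher and 1543 lower at this age, in place of 2447 and 873, and both SWEET genes stayed higher (log2 fold changes 1.72 for *SbSWEET16* and 1.30 for *SbSWEET1*). *SbSWEET16* ranked 184th and *SbSWEET1* 560th from the top of the 16967 log2 fold changes. Among genes above 1 FPKM in *wxe* at this age, the level of *SbSWEET16* exceeded 90.8% and that of *SbSWEET1* 78.0%, compared with 69.4% and 50.5% in WT.

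The second *wxe* library at 6 DPA was above the first by 1.82-fold for *SbSWEET16* and by 2.23-fold for *SbSWEET1*. On the log2(FPKM + 1) scale these differences were larger than those of 95.5% and 98.0% of the 16467 genes above 1 FPKM in *wxe* at 6 DPA. The SD of this group on that scale was 0.60 for *SbSWEET16* and 0.78 for *SbSWEET1*. The standard errors from the pooled spread were 0.25 and 0.31, so the 95% intervals at 6 DPA are narrow for this group. The second *wxe* library was the higher of the pair in 91.3% of the 2447 genes called higher, in 24.1% of the 873 called lower and in 60.3% of all genes tested. Leaving it out gave 2115 called genes at 6 DPA in place of 3320, and leaving out the first gave 4853. What separates these libraries was not tested.

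Some markers of endosperm differed between the genotypes at the same age. The kafirin gene *Sobic.009G001600*, which encodes a storage protein of sorghum endosperm, ranged from 417 to 95040 FPKM over the 16 libraries. It is among 5 starch and storage protein genes, with *SbGBSSI*, the starch branching enzyme gene *SbSBEIIb*, *globulin-1* and *globulin-2*. Of these 5 genes 0 were listed at 0 in any library. The study calls the globulins storage proteins, and whether their genes mark endosperm was not tested. At 6 DPA the 5 genes summed to 1070 and 1079 FPKM in *wxe* and to 4470 and 5125 FPKM in WT, and 3 of them (the kafirin, *SbGBSSI* and *SbSBEIIb*) were called lower, against 5.15% of all genes tested. The kafirin made up much of the WT sum, with 417 and 497 FPKM in *wxe* and 3064 and 3846 FPKM in WT. The globulin genes were not called, with 4.34 and 0.865 FPKM in *wxe* and 0.236 and 0.270 FPKM in WT for *globulin-1* (log2 fold change 1.33) and with 4.62 and 2.74 FPKM in *wxe* and 1.35 and 1.51 FPKM in WT for *globulin-2* (0.92). Both lay higher in the *wxe* libraries, opposite to the other 3, but short of a call (adjusted p = 0.19 and 0.166 from limma). *SbGBSSI* itself had 331 and 329 FPKM in *wxe* and 847 and 752 FPKM in WT (log2 fold change -1.27, adjusted p = 0.00011 from limma). At 11 DPA only *SbGBSSI* of the 5 was called, lower in *wxe* (-0.67, adjusted p = 0.00691 from limma). At that age 12.1% of all genes tested were called lower. The globulin genes lay lower there without a call (-1.575 and -1.35, adjusted p = 0.125 and 0.0517 from limma). The kafirin (-0.15) and *SbSBEIIb* (0.38) were not called either. The part of these 5 genes in the SWEET difference was not tested. No list of markers of maternal or embryo tissue was analysed here.

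At 11 DPA, *SbSWEET16* had 3.69 and 5.01 FPKM in *wxe*, against 12.3 and 15.2 FPKM in WT. The means were 4.35 ± 0.932 FPKM in *wxe* and 13.7 ± 2.07 FPKM in WT (SD, n = 2 each), with no overlap. On the log2 scale the difference was -1.47 (standard error 0.25, 95% interval -2.0 to -0.93, adjusted p = 0.000986 from limma). *SbSWEET16* was called lower, at an age where 12.1% of the 15808 genes tested were called lower in *wxe* and 5.78% higher. It ranked 310th from the bottom. This call was kept in all the alternatives, with an adjusted p from limma of up to 0.0358.

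*SbSWEET1* at 11 DPA had 0.630 and 1.09 FPKM in *wxe*, against 1.70 and 1.82 FPKM in WT. The libraries did not overlap, with means of 0.861 ± 0.326 FPKM in *wxe* and 1.76 ± 0.0848 FPKM in WT (SD, n = 2 each). The log2 fold change of -0.58 had a 95% interval of -1.26 to 0.10 (standard error 0.31, adjusted p = 0.171 from limma) and was not called. With 11 DPA fitted alone, where the spread at other ages does not enter, the adjusted p was 0.0436 and the gene was called. A pseudocount of 1 narrows the difference of a gene at this level, and with a pseudocount of 0.1 the log2 fold change was -1.0 (adjusted p = 0.232).

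**Figure D2:**
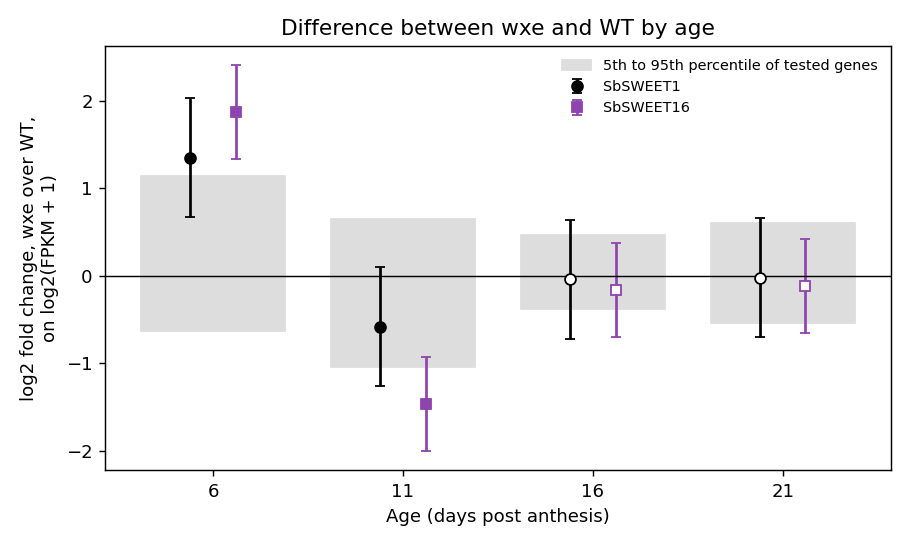
Log2 fold change of *wxe* over WT on log2(FPKM + 1) by age, with 95% intervals from limma. Filled symbols were tested, open symbols had a mean of at most 1 FPKM in both genotypes and were not, and the grey bands span the 5th to the 95th percentile of all genes tested at that age. *SbSWEET16* lies above the band at 6 DPA and below it at 11 DPA, and *SbSWEET1* lies above it at 6 DPA and within it at 11 DPA.

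At 16 and 21 DPA both genes had a mean under 1 FPKM in both genotypes, so they were not tested at these ages. *SbSWEET1* had 0.134 and 0.578 FPKM in *wxe* and 0.655 and 0.143 FPKM in WT at 16 DPA. At 21 DPA it had 0.854 and 0.425 FPKM in *wxe* and 0.4865 and 0.834 FPKM in WT. The genotypes overlapped at both ages.

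*SbSWEET16* had 0.120 and 0.189 FPKM in *wxe* and 0.429 and 0.164 FPKM in WT at 16 DPA. At 21 DPA it had 0.288 FPKM in the first *wxe* library and was listed at 0 in the second, against 0.223 and 0.239 FPKM in WT. Again the genotypes overlapped. The table gives no read counts, so how many reads lie behind values this low is unknown.

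Whether the *wxe* effect itself differed between ages was tested in the same model. Between 6 and 11 DPA, a contrast added after the values were seen, the effect differed by 3.34 on the log2 scale for *SbSWEET16* (standard error 0.35, adjusted p = 2.84e-05 from limma) and by 1.93 for *SbSWEET1* (standard error 0.44, adjusted p = 0.00475). Both passed the threshold, as 22.9% of the 18349 genes fitted did in that direction, and both passed it with each of the 16 libraries left out in turn. Between 6 and 21 DPA the effect differed by 1.99 for *SbSWEET16* (standard error 0.35, adjusted p = 0.00185) and by 1.37 for *SbSWEET1* (standard error 0.44, adjusted p = 0.0402), and 14.8% of the genes passed in that direction. At 21 DPA both genes had means under 1 FPKM in both genotypes, where log2(FPKM + 1) leaves little room for a difference. The *wxe* effects at that age were -0.12 for *SbSWEET16* and -0.02 for *SbSWEET1*. The 6 to 21 DPA contrast thus largely repeats the 6 DPA effect. Its value for *SbSWEET16* kept its call without any single library. That of *SbSWEET1* lost it without any of 9 libraries, namely the second *wxe* library of 6 DPA (0.82, adjusted p = 0.143), either WT library of 6 or 11 DPA and any library of 21 DPA, with adjusted p from 0.0505 to 0.128 for the other 8.

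Within a genotype, the 2 genes left the 6 DPA level at different ages in WT. *SbSWEET16* in WT had nearly the same level at 6 and 11 DPA (log2 fold change of 11 against 6 DPA -0.10, 95% interval -0.64 to 0.43, adjusted p = 0.737 from limma), and the libraries of these ages overlapped. The direction of that small value turned without the first WT library of 6 DPA (0.05) or of 11 DPA (0.04). *SbSWEET1* in WT was already lower at 11 than at 6 DPA (-1.60, standard error 0.31, adjusted p = 0.000839). In WT 21.0% of the genes tested were called lower at 11 than at 6 DPA.

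In *wxe* both genes were called lower at 11 than at 6 DPA, with log2 fold changes of -3.53 for *SbSWEET1* (adjusted p = 1.17e-06 from limma) and -3.44 for *SbSWEET16* (adjusted p = 1.92e-07). The share of genes called lower in this step was 28.3% in *wxe*. *SbSWEET1* ranked 186th and *SbSWEET16* 205th from the bottom of 17185 genes tested.

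Between 11 and 16 DPA *SbSWEET16* was called lower in both genotypes, with log2 fold changes of -2.20 in *wxe* (adjusted p = 1.78e-05 from limma) and -3.51 in WT (adjusted p = 6.11e-07). Genes called lower in this step made up 17.9% in *wxe* and 21.5% in WT. In WT, *SbSWEET16* ranked 49th from the bottom of the 15974 genes tested, with a 46.4-fold difference of the means. *SbSWEET1* in WT was also called lower (-1.01, adjusted p = 0.0165), but not without the first (-1.04, adjusted p = 0.0545) or the second (-0.97, adjusted p = 0.0736) library of 11 DPA or the second of 16 DPA (-0.74, adjusted p = 0.13). In *wxe* its mean was under 1 FPKM at both ages and it was not tested. From 16 to 21 DPA neither gene was tested, and the libraries of the 2 ages overlapped in both genotypes for each gene.

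Ordered by mean level, *SbSWEET1* was highest in *wxe* at 6 DPA, then in WT at 6 DPA and WT at 11 DPA, with no overlap between these 3 groups. The libraries of *wxe* at 11 DPA overlapped those of 21 DPA and of WT at 16 DPA, but not those of *wxe* at 16 DPA. All groups of 16 and 21 DPA overlapped among themselves. *SbSWEET16* was highest in *wxe* at 6 DPA, followed by WT at 6 and 11 DPA, which overlapped, and by *wxe* at 11 DPA, which stood apart from all other groups. The FPKM of *SbSWEET16* over that of *SbSWEET1* in the same library was 3.10 and 2.52 in *wxe* and 2.04 and 1.97 in WT at 6 DPA. At 11 DPA the ratio was 5.85 and 4.59 in *wxe* and 7.20 and 8.34 in WT, so that *SbSWEET16* was the more abundant transcript per length in all 8 libraries of these ages. From 16 DPA on, with both genes under 1 FPKM, the ratio was 1.15 in 1 WT library and under 1 in the others.

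A higher level at 6 DPA together with a lower level at 11 DPA was a common combination. Of 1754 genes called higher in *wxe* at 6 DPA and tested at both ages, 771 (44.0%) were called lower at 11 DPA, which is 46.5% of the 1658 genes called lower at 11 DPA among those tested at both. The median log2 fold change at 11 DPA of the 1754 genes was -0.55, close to the -0.58 of *SbSWEET1*. *SbSWEET16* was one of 49 genes with a log2 fold change at least as high as its own at 6 DPA and at least as low at 11 DPA, itself included.

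**Figure D3:**
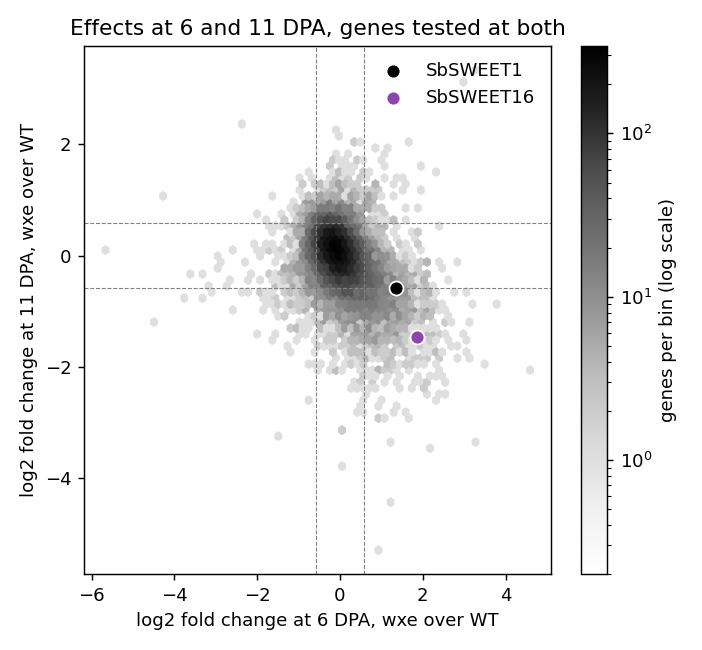
Log2 fold change of *wxe* over WT at 6 DPA (x) and 11 DPA (y) for the 15072 genes tested at both ages, as the number of genes per bin, with both SWEET genes marked. Dashed lines mark the fold threshold of 0.58. *SbSWEET1* (1.35, -0.58) lies near the body of the genes that were higher at 6 DPA, and *SbSWEET16* (1.87, -1.47) lies towards the lower right edge.

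The genes with the profile most like each member were found by Pearson's r of log2(FPKM + 1) over the 16 libraries, among 18348 other genes. This is a description, since the libraries share ages and the same values enter r and the tests. The 5 genes closest to *SbSWEET16* had r from 0.994 to 0.998. All 5 were called higher in *wxe* at 6 DPA and lower at 11 DPA, as *SbSWEET16* was. Over all genes tested, 14.4% were called higher at 6 DPA and 12.1% lower at 11 DPA. The 5 were picked by r over the same values, so their matching calls follow largely from that choice. The closest was *Sobic.003G267400*, which the study lists as a MYB transcription factor gene. Its mean FPKM at 6, 11, 16 and 21 DPA was 27.2, 2.84, 0.112 and 0.164 in *wxe*, against 7.95, 8.32, 0.0926 and 0.163 in WT. Without the *wxe* libraries of 6 DPA its r with *SbSWEET16* was 0.997 over 14 libraries. The other 4 were *Sobic.003G411100*, *Sobic.002G055400*, *Sobic.005G035300* and *Sobic.006G230900*, the last of which stayed above 2.5 FPKM in all groups.

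The 5 genes closest to *SbSWEET1* had r from 0.987 to 0.990. They were *Sobic.001G369500*, *Sobic.006G140801*, *Sobic.006G099900*, *Sobic.003G327500* and *Sobic.010G235000*. Of these, 4 were called higher in *wxe* at 6 DPA, against 14.4% of all genes tested, and *Sobic.010G235000* was not (log2 fold change 0.48). These genes too were picked by r over the same values. Over all genes tested, 12.1% were called lower at 11 DPA. At 11 DPA 2 of the 5 were above 1 FPKM in a genotype and were tested, and 0 were called lower by limma, with 1 lower at an unadjusted p below 0.05. *Sobic.006G099900* had the largest difference, with 88.4 FPKM in *wxe* and 12.2 FPKM in WT at 6 DPA.

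With each other the SWEET genes had r = 0.901 over 16 libraries and 0.817 over the 14 libraries without *wxe* at 6 DPA. Of 18348 genes, *SbSWEET16* stood at rank 1608 in the list of *SbSWEET1*, and *SbSWEET1* at rank 1276 in that of *SbSWEET16*. An r above 0.95 was reached by 528 genes (2.88%) with *SbSWEET1* and by 368 genes (2.01%) with *SbSWEET16*.

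**Figure D4:**
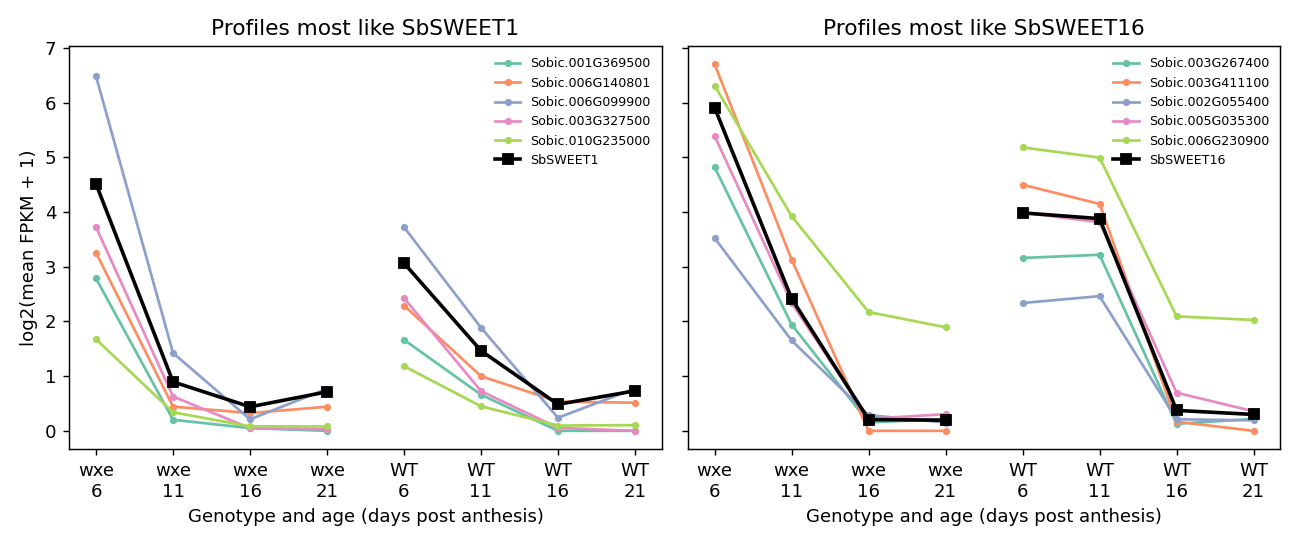
Log2 of mean FPKM + 1 by genotype and age for *SbSWEET1* (left) and *SbSWEET16* (right), in black, and for the 5 genes with the highest Pearson's r over the 16 libraries. *SbSWEET16* and its 5 genes differ little between 6 and 11 DPA in WT and drop over the same interval in *wxe*, while *SbSWEET1* and its 5 genes drop in both.

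The study names 7 other genes of sugar metabolism and transport by ID, also drawn from these libraries, so their counts are not independent evidence of a direction. Of the 7, all tested at 6 DPA, 2 were called higher and 2 lower in *wxe*, where 14.4% of all genes tested were called higher and 5.15% lower. Their median log2 fold change was -0.44, against 0.01 over all genes tested, and all 7 had an unadjusted p below 0.05 by limma. *Sobic.002G291200* (UTP-glucose-1-phosphate uridylyltransferase, -0.54) and *SbAGA2* (*Sobic.002G075900*, -0.44) were lower at an adjusted p below 0.05 but missed the fold threshold. The sucrose transporter gene *Sobic.001G488700* (-0.44, adjusted p = 0.0714 from limma) was not called. *Sobic.004G004800* (invertase 3, of the enzymes that split sucrose into glucose and fructose) was called higher, with 3.18 and 5.50 FPKM in *wxe* and 1.91 and 1.49 FPKM in WT. *SbAGA1* (*Sobic.002G075800*, an α-galactosidase gene of raffinose breakdown) was called higher too, but its *wxe* libraries lay at 5.28 and 35.6 FPKM, against 2.50 and 3.35 FPKM in WT. The sucrose synthase genes *Sobic.001G344500* and *Sobic.001G378300*, whose enzymes split sucrose into fructose and UDP-glucose, were called lower, with log2 fold changes of -0.74 and -0.64.

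At 11 DPA, where 5.78% of all genes tested were called higher and 12.1% lower, 2 of the 6 list genes tested were called higher and 1 lower. Both sucrose synthase genes were called higher in *wxe* (0.68 and 0.66), while *SbSWEET16* was called lower. The sucrose transporter gene *Sobic.001G488700*, of the carriers that take up sucrose together with protons, was called lower (-0.84, adjusted p = 0.00352 from limma), as *SbSWEET16* was. At 16 DPA, where 0.987% of all genes were called, 0 of the 6 tested genes were called by limma, with 2 at an unadjusted p below 0.05. At 21 DPA, where 3.58% of all genes were called higher, 1 of the 5 tested was, *Sobic.001G344500*. The difference of the *wxe* effect between 6 and 11 DPA was negative for the sucrose synthases (-1.42 and -1.30, adjusted p = 0.000507 and 0.000243 from limma, with 17.2% of all genes passing in that direction) and positive for both SWEET genes.

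**Figure D5:**
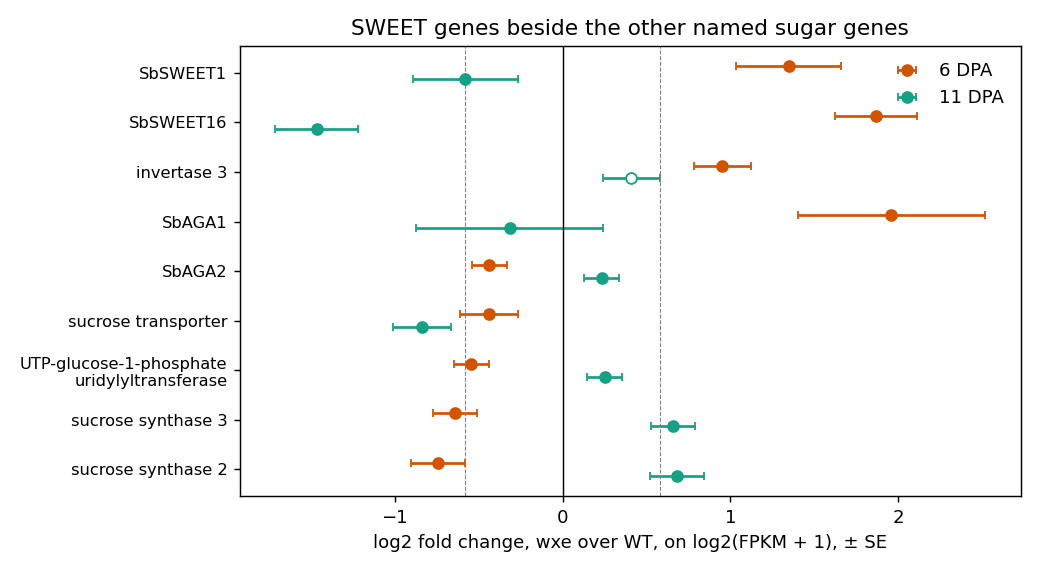
Log2 fold change of *wxe* over WT on log2(FPKM + 1) at 6 DPA and 11 DPA, with standard errors from limma, for both SWEET genes and the 7 other sugar genes. Dashed lines mark the fold threshold of 0.58, and the open symbol was not tested. Both SWEET genes lie to the right at 6 DPA and to the left at 11 DPA, and the sucrose synthases lie the other way round.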

How the data were processed

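Endosperm RNA of *wxe* and WT was sequenced as 16 paired-end libraries. Per the labels and methods, the authors checked reads with FastQC, trimmed them with Trimmomatic, aligned them with STAR (version 3 of the sorghum genome) and computed FPKM with Cufflinks. Tool versions and the treatment of multiply aligned reads are not given in the sources used here. The deposited table holds FPKM and no counts, so depth is unknown and counting error could not be computed. FPKM summed to 493357 to 550572 per library at 6 DPA and to 779091 to 1001504 at the later ages. At 11 DPA the sums were 779091 and 873138 in *wxe* and 948355 and 1001504 in WT.

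Values on log2(FPKM + 1) were fitted with limma 3.58.1 in R 4.3.3, in 1 model of 8 groups with a variance trend (8 residual degrees of freedom), over 18349 genes with a group mean above 1 FPKM. P-values were two-sided and adjusted (Benjamini-Hochberg) over genes above 1 FPKM in either group compared. For the difference of the *wxe* effect between ages they were adjusted over all 18349 genes fitted, with no fold threshold. An exact permutation test of 2 against 2 libraries cannot go below p = 0.333. Cuffdiff needs reads and was not run. The script was tested on simulated data.

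Named genes are both members, the study's 7 other sugar genes and 5 starch and storage protein genes. The 5 closest profiles and, in ID order, the 5 neighbours on each side are also among them. The members and lists were chosen with earlier results of these data known. 0 gene IDs matched the reference table, so other SWEET genes, tissue markers by product name, coordinates and sequences were not analysed here. Alternatives were a pseudocount of 0.1, no filter or one at 5 FPKM, each age alone, a replicate block, median-ratio scaling, quantile normalization, no variance trend and each library left out.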

Additional observations from a re-analysis of the deposited data

Results flagged for a closer look

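The *wxe* effect differed between ages for both genes. For *SbSWEET16* it was larger at 6 DPA than at 11 DPA by 3.34 on the log2 scale and larger than at 21 DPA by 1.99. For *SbSWEET1* the differences were 1.93 and 1.37. All 4 passed limma's test of the difference at an adjusted p below 0.05. Of all genes fitted, 22.9% passed in this direction between 6 and 11 DPA and 14.8% between 6 and 21 DPA. Each difference contains the 6 DPA effect, for which the study names both genes, so none is independent evidence. The 6 to 11 DPA contrast was added after the values were seen. With both genes under 1 FPKM at 21 DPA, the 6 to 21 DPA contrast largely repeats the 6 DPA effect. For *SbSWEET1* the 6 to 21 DPA difference was lost without the second *wxe* library of 6 DPA (0.82, adjusted p = 0.143 from limma) and without any of 8 others. What lies behind the differences was not tested.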

How the results depend on the processing

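Over 24 results on the SWEET genes, 526 of 553 alternative values were counted as unchanged, among them all 48 under another scaling. Scaling shifted the median of all genes by at most 0.0848 on the log2 scale. For a tested result, unchanged means the same direction and the same side of the threshold. For an untested result it means not called and moved by less than the larger SD of the groups compared, whatever the sign. With libraries left out, *SbSWEET1* at 16 DPA ran from -0.31 to 0.23, all counted as unchanged. With a pseudocount of 0.1, *SbSWEET1* was no longer called at 6 DPA (1.45) or between 6 and 21 DPA (1.51). Under that pseudocount the low, untested values moved, for *SbSWEET1* to -1.23 in *wxe* from 11 to 16 DPA and to 0.83 in *wxe* and 0.79 in WT from 16 to 21 DPA. Those of *SbSWEET16* moved to -0.57 at 16 DPA, -0.75 at 21 DPA and -0.36 in *wxe* from 16 to 21 DPA. With no filter, *SbSWEET1* was not called between 6 and 21 DPA (1.37, adjusted p = 0.0788 from limma), and 82 genes in place of 148 were called at 16 DPA. Fitted alone, 6 DPA lost *SbSWEET1* (1.35) with 1909 genes called in place of 3320, 11 DPA gained it (-0.58), and 21 DPA gave 457 genes in place of 975. The filter at 5 FPKM gave 2194 genes at 6 DPA and left *SbSWEET1* untested at 11 DPA. Apart from the tests with fewer genes or fewer libraries, the cause was not tested.

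With each library left out in turn, *SbSWEET1* ran from 0.80 to 1.90 at 6 DPA, from 0.82 to 1.92 between 6 and 21 DPA and from -1.27 to -0.74 in WT from 11 to 16 DPA. *SbSWEET16* in WT from 6 to 11 DPA ran from -0.26 to 0.049. The counts of called genes ran from 2115 to 4853 at 6 DPA, from 28 to 207 at 16 DPA and from 587 to 1043 at 21 DPA, and the lowest count at each of these ages came without the second *wxe* library of that age. At 16 DPA 5 other libraries gave 37 to 93 genes, namely either WT library of 6 or 16 DPA and the first *wxe* library of 16 DPA. A group left with 1 library is assumed to vary like the others.

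The genotypes share replicate numbers, which the labels do not tie to a plot or day. Deviations of same-numbered *wxe* and WT libraries correlated across genes at -0.278, 0.214, -0.0135 and 0.112 at 6, 11, 16 and 21 DPA. Over all pairs of the 8 groups such correlations ran from -0.278 to 0.367. With a replicate block all 24 SWEET results were unchanged in call (at 6 DPA 1.87 for *SbSWEET16* and 1.35 for *SbSWEET1*), and 3404 genes were called at 6 DPA. Depth is unknown, which limits all values under 1 FPKM.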

Other observations

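Of the 10 genes next to each SWEET gene in the order of the IDs, 5 on each side, 5 exceeded a mean of 1 FPKM in a group. Over all genes tested, 14.4% were called higher in *wxe* at 6 DPA, and 5.78% were called higher and 12.1% lower at 11 DPA. Beside *SbSWEET1*, 1 of 3 tested neighbours was called at 6 DPA, *Sobic.003G377900*, with 4.57 and 3.30 FPKM in *wxe* and 1.96 and 2.54 FPKM in WT (log2 fold change 0.60, adjusted p = 0.00625 from limma). At 11 DPA this gene and the one between it and *SbSWEET1*, *Sobic.003G377800*, were called lower in *wxe* (-0.59 each), 2 of the 4 tested.

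Beside *SbSWEET16*, 1 of 5 tested neighbours was called at 6 DPA, *Sobic.001G377100*, with 7.52 and 10.4 FPKM in *wxe* and 3.98 and 3.45 FPKM in WT (log2 fold change 1.07, adjusted p = 0.000632 from limma). At 11 DPA the 2 genes that follow *SbSWEET16*, *Sobic.001G377700* and *Sobic.001G377800*, were called higher in *wxe* (0.68 and 0.62), at the age where *SbSWEET16* itself was called lower.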
